A study of Mus musculus with 12 samples.

Results

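The genes described here carry fatty acids into skeletal muscle and oxidise them, mostly in mitochondria. They were 33 genes of the 34866 gene IDs in each deposited table, found by their Ensembl IDs. They were chosen by name for their place in this pathway, with earlier results of these data known. Their expression was compared between gastrocnemius and soleus and between mice with and without Phf2, a histone demethylase that removes methyl groups from lysine residues of histone H3, in muscle fibres. Muscles were taken from 4-week-old male mice of the C57BL/6 background. Control mice (Ctrl) were Phf2 flox/flox;Acta1 Cre- and knockout mice (KO) were Phf2 flox/flox;Acta1 Cre+, so the controls carried the floxed alleles too. The Acta1 promoter drives Cre in skeletal muscle fibres, and vessel, fat, immune and connective tissue cells in the same muscle are expected to keep Phf2. Each of the 4 groups had 3 libraries. The labels do not state that these were separate mice, and p-values then measure only the spread between these samples.

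Fatty acids reach a muscle fibre from lipoproteins that lipoprotein lipase splits at the capillary wall, or bound to albumin, and cross membranes with the help of carriers. In the cell they are activated to acyl-CoA, passed into mitochondria as carnitine esters and shortened in repeated rounds of dehydrogenation, hydration, a second dehydrogenation and thiolysis. Slow-twitch fibres, which fill much of the soleus, rely on this pathway more than the fast-twitch fibres that dominate the gastrocnemius.

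Values were TPM, in which the length-scaled transcript shares of a library sum to 1000000, so levels can be set side by side between genes. Depth was unknown, since TPM keeps none. Genes above 0 numbered 18291 to 20175 per library, with 18291 to 18699 in gastrocnemius Ctrl and 19676 to 20175 in gastrocnemius KO. The muscles matched their labels, since 10 of 10 slow fibre markers were higher in Ctrl soleus than in Ctrl gastrocnemius and 10 of 11 fast fibre markers were lower. The exception was the fast myosin Myh1, at 729 ± 117 TPM in gastrocnemius and 1492 ± 505 in soleus (SD, n = 3). Several libraries stood apart. Soleus KO 3 had 39.0% of its TPM in mitochondrially encoded genes, against 24.5% to 29.6% in the other soleus libraries. Its GC slope was -2.56, against 0.20 to 0.92 in the other soleus libraries. This slope is the change of log2(TPM + 1) per unit of GC fraction, fitted together with transcript length. Each gene's mean over the libraries of the same muscle was subtracted first. Slopes and their signs are therefore relative within a muscle, and the low value of soleus KO 3 raises those of the other soleus libraries. In gastrocnemius the slope was negative in every Ctrl library and positive in every KO library. Mitochondrially encoded genes held 22.01% to 24.15% of TPM in gastrocnemius Ctrl and 18.1% to 20.7% in gastrocnemius KO. Processed pseudogenes above 0 numbered 1018 to 1160 in gastrocnemius Ctrl and 1539 to 1781 in gastrocnemius KO. The pseudogene Gm12338 was at 0 in the 3 gastrocnemius Ctrl libraries and above 0 in the 3 KO libraries. Among soleus libraries, Ctrl 1, Ctrl 3 and KO 2 had it above 0. Below, a library shift is how much a gene's soleus level differed, within a genotype, where Gm12338 was present from where it was at 0. Soleus KO 3 was among the libraries at 0, so its other features enter every such shift and cannot be told apart from it.

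Phf2 was measured at 9.996, 11.38 and 8.245 TPM in gastrocnemius Ctrl and at 6.741, 7.608 and 7.003 in KO. In soleus it was at 14.03, 10 and 14.98 TPM in Ctrl and at 8.112, 9.063 and 6.79 in KO. The KO libraries lay below every Ctrl library in both muscles. Its log2 difference of -0.41 in gastrocnemius (SE 0.118, limma adjusted p = 0.0601) and of -0.63 in soleus (SE 0.174, adjusted p = 0.326) did not pass the threshold of 0.05. RNA of cells without Cre, and parts of the transcript outside the deleted exons, which the labels do not name, enter these values too.

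Upstream sequence is shown for Cd36, Acot1 and Acot2, on which the KO results turn, and for Hadhb, whose start lies 273 bases from that of its partner Hadha on the other strand. Each run is the 250 bases before the gene's start in RefSeq, 5′ to 3′ on the gene's own strand, build GRCm38.p6. Cd36 has further starts upstream of this one in GENCODE M21, whose promoters are not shown. Cd36 has further starts upstream of this one in GENCODE M21, whose promoters are not shown. Capitals mark the nuclear receptor motif AGGTCA on either strand, the letters bound by receptors such as PPARs and estrogen-related receptors, which are known regulators of this pathway. The coordinates are chr5:17835897-17836146 (minus strand) for Cd36, chr12:84009252-84009501 (plus) for Acot1, chr12:83987611-83987860 (plus) for Acot2 and chr5:30155003-30155252 (plus) for Hadhb.
Cd36: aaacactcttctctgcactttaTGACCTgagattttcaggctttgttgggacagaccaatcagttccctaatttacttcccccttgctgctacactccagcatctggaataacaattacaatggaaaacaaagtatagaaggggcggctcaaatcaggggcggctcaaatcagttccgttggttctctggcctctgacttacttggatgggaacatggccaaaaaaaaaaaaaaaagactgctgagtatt
Acot1: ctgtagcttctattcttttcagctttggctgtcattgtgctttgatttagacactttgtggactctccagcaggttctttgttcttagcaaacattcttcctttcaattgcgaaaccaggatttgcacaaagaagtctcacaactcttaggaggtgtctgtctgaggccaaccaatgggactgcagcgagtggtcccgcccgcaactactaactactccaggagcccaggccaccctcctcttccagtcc
Acot2: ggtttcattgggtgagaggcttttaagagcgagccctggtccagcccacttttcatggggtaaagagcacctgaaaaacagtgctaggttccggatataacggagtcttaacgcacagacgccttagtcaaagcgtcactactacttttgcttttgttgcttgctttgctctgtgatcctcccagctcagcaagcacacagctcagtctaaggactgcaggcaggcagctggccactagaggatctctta
Hadhb: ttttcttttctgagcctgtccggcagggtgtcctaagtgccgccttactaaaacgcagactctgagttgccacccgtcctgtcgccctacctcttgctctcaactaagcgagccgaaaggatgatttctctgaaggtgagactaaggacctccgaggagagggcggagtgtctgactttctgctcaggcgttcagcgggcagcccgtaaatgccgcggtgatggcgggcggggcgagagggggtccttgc

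The Cd36 window held 1 copy, which began at position -228 from the start, and the Acot1, Acot2 and Hadhb windows held none. Of the 25 members with a window, 5 held AGGTCA on either strand (20%, Acadm, Acadvl, Cd36, Echs1 and Ucp3), against 14% of all 32851 windows of this length. The direct repeat of this motif with 1 free base between the copies was found for 0 of 25 members and in 0.0335% of all windows. The estrogen-related receptor site TCAAGGTCA, which overlaps the motif, was in 0 of 25 and in 0.387%. CCAAT, searched on both strands, was found for 13 of 25 members (52%) and in 33.8% of all windows. Cd36, Acot1 and Acot2 were among the 13. A member was counted if any window of its symbol matched, while all windows were counted singly, so these shares are not strictly alike. A match is a run of letters and not a shown binding site.

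Soleus held more mRNA of this pathway than gastrocnemius. The summed level of the 33 members was 3524 to 3633 TPM in the gastrocnemius Ctrl libraries and 9028 to 9791 TPM in the soleus Ctrl libraries. Fabp3, the heart-type fatty acid binding protein that carries fatty acids through the cytosol, had the highest level of the members in all 4 groups. It made up 13.2% to 22.9% of the members' sum in gastrocnemius libraries and 25.3% to 32.1% in soleus libraries. Below it, Etfb, Pdk4 and Hadhb were next in gastrocnemius Ctrl, and Pdk4, Etfb and Lpl in soleus Ctrl. Acot1, Angptl4 and Slc27a4 were the 3 lowest in both Ctrl groups, with group means of 1.35 to 10.1 TPM.

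**Figure D1:**
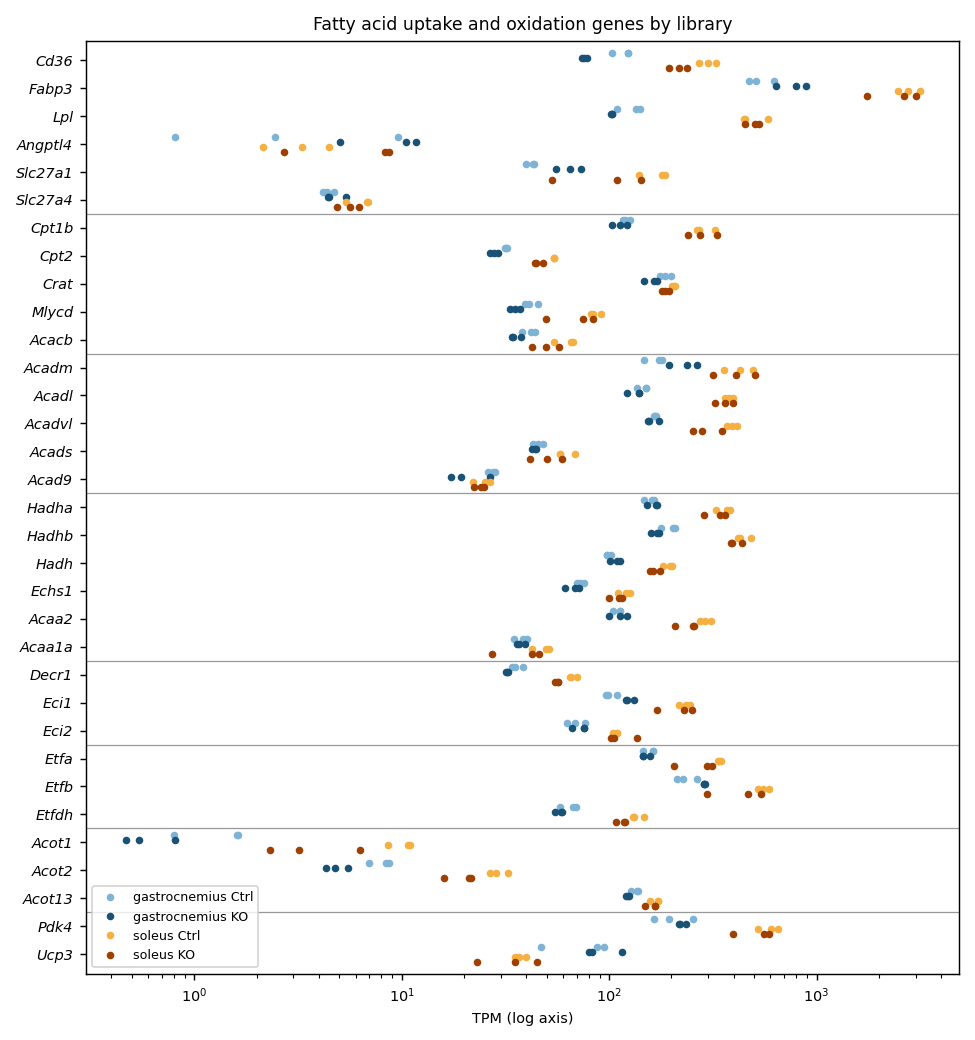
TPM on a log axis of the 33 members in each of the 12 libraries, a point per library, with colours for muscle and genotype and lines between functional groups. Most soleus points lie to the right of the gastrocnemius points, from Acot1, as low as 0.468 TPM, up to Fabp3 at 3143 TPM in its highest library, while Ucp3 shows the opposite order.

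In Ctrl mice, 29 of the 33 members were higher in soleus than in gastrocnemius (limma adjusted p under 0.05), which is 87.9% against 31.4% of all 12048 genes tested. One member, Ucp3, was lower, where 10.2% of all genes were. The median log2 difference of the members was 1.12, against 0.19 for all tested genes. Angptl4, Crat and Acad9 did not pass the test. Each library is scaled to its own total, and a larger share of fibres rich in these mRNAs cannot be told apart from more mRNA per fibre.

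Among the genes of uptake and binding, 5 of 6 were higher in soleus. Fabp3 was at 627, 471 and 511 TPM in gastrocnemius Ctrl and at 3143, 2764 and 2462 TPM in soleus Ctrl. The groups did not overlap, with a ratio of means of 5.20 and a log2 difference of 2.38 (SE 0.134, adjusted p = 2.0e-05). Slc27a1, a fatty acid transport protein with acyl-CoA synthetase activity, was at 39.9, 43.0 and 43.7 TPM in gastrocnemius and at 179, 140 and 186 TPM in soleus. All 3 soleus libraries were above the gastrocnemius libraries, and the log2 difference was 1.96 (SE 0.118, adjusted p = 2.6e-05). Lpl, the lipoprotein lipase of the capillary wall, had a ratio of means of 3.86 and Cd36, a fatty acid translocase of the plasma membrane, of 2.57. Slc27a4, a related transport protein, was higher by 0.43 on the log2 scale. Angptl4, a secreted inhibitor of lipoprotein lipase, spread from 0.807 to 9.64 TPM within gastrocnemius Ctrl alone, which covered all 3 soleus values.

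Of the carnitine shuttle and malonyl-CoA genes, 4 of 5 were higher in soleus. Cpt1b, the muscle form of the outer membrane palmitoyltransferase that commits acyl groups to mitochondria, had a log2 difference of 1.24 (SE 0.0952), and Cpt2, which restores acyl-CoA on the inner side, of 0.75 (SE 0.0698). Mlycd, which removes the CPT1 inhibitor malonyl-CoA, was higher by 1.01, and Acacb, which makes malonyl-CoA, by 0.57. Crat, which moves acetyl groups between CoA and carnitine, was at 187 ± 11.1 and 205 ± 3.39 TPM (SD, n = 3), a log2 difference of 0.13 that did not pass (adjusted p = 0.195).

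Of the 17 enzymes and electron carriers of the oxidation spiral, 16 were higher in soleus. All 6 hydratase, hydroxyacyl-CoA dehydrogenase and thiolase genes (Hadha, Hadhb, Hadh, Echs1, Acaa2, Acaa1a), all 3 auxiliary genes for unsaturated acids (Decr1, Eci1, Eci2) and all 3 electron transfer flavoprotein genes (Etfa, Etfb, Etfdh) were among them. Acaa1a is a peroxisomal thiolase, and its call was kept in 2 of 6 fits without a library and in 5 of 9 other settings. Acaa2, the mitochondrial thiolase, was at 113, 113 and 105 TPM in gastrocnemius and at 274, 310 and 291 TPM in soleus, a log2 difference of 1.39 (SE 0.0793, adjusted p = 2.1e-05). Every soleus library was above every gastrocnemius library. Acadl, the long-chain acyl-CoA dehydrogenase, was at 152, 150 and 136 TPM against 378, 398 and 364 TPM, a difference of 1.38 (SE 0.0792, adjusted p = 2.2e-05). Acadvl, the very-long-chain enzyme of the inner membrane, was at 169, 167 and 165 TPM against 393, 416 and 372 TPM, a difference of 1.23 (SE 0.0734, adjusted p = 2.5e-05). Both pairs of groups were far apart relative to their spread. Acadm, the medium-chain enzyme, followed at 1.34 and Acads, the short-chain enzyme, at 0.42. Acad9, which also helps to assemble respiratory complex I, was the exception among the dehydrogenases, at 27.4 ± 1.08 TPM in gastrocnemius and 24.7 ± 2.36 in soleus, and did not pass.

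The acyl-CoA thioesterases, which split acyl-CoA back to free fatty acid and CoA, were also higher in soleus. Acot2, the mitochondrial form, was at 8.66, 6.96 and 8.41 TPM in gastrocnemius and at 32.6, 28.4 and 26.8 TPM in soleus, a log2 difference of 1.75 (SE 0.115, adjusted p = 3.9e-05). Acot1, its cytosolic neighbour on chromosome 12, had the largest ratio of means of the members at 7.52, from 1.35 ± 0.474 to 10.1 ± 1.35 TPM (SD, n = 3). Acot1 and Acot2 start 21641 bases apart and share sequence. Of the 31-base words of Acot2 transcripts 29.9% also occur in Acot1, and of those of Acot1 20.4% in Acot2, so reads could be divided between them in ways the values do not show.

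Pdk4, the kinase that shuts off pyruvate dehydrogenase and so favours fat over glucose, was 2.91 times as high in soleus. Ucp3, an inner membrane carrier whose expression follows fatty acid supply, was at 47.0, 87.5 and 95.0 TPM in gastrocnemius and at 36.8, 39.7 and 35.1 TPM in soleus. The groups did not overlap, although gastrocnemius Ctrl 1 lay near the soleus values, and the log2 difference was -0.96 (SE 0.242, adjusted p = 0.0159). The Ucp3 call was lost without gastrocnemius Ctrl 2, without soleus Ctrl 3 and with no filter on low values.

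**Figure D2:**
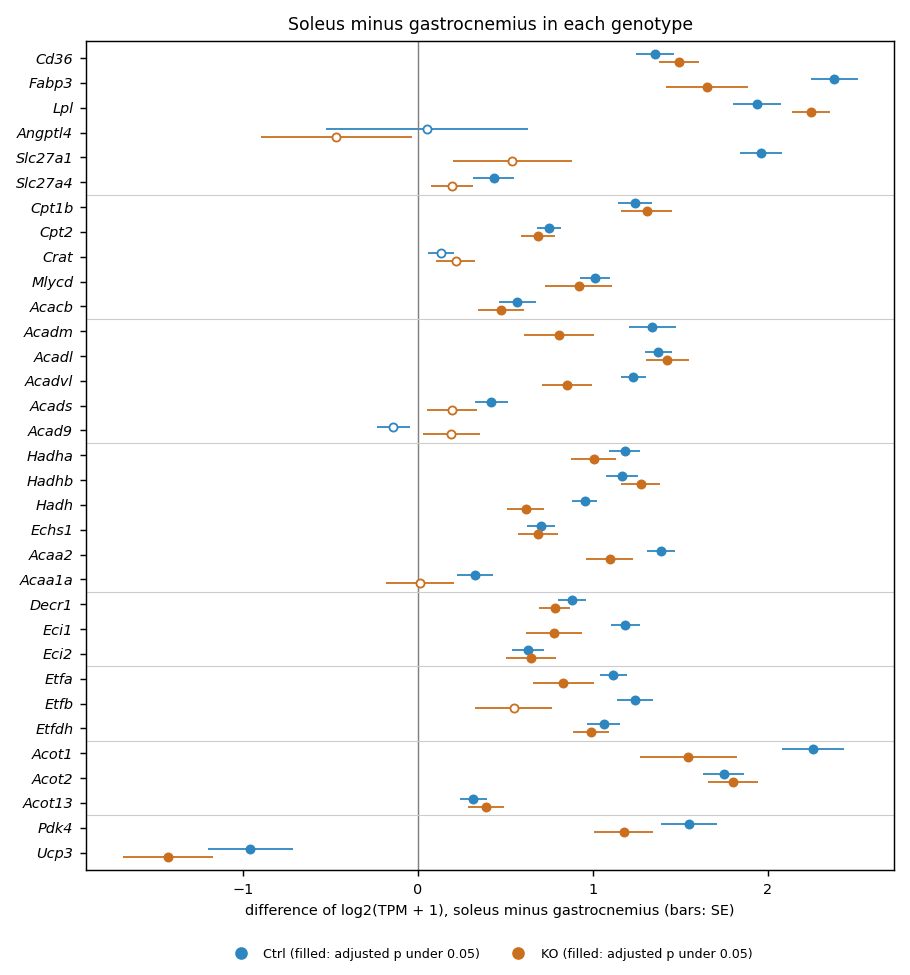
Difference of log2(TPM + 1), soleus minus gastrocnemius, for each member in Ctrl and in KO mice, with bars of 1 SE from limma and filled points for an adjusted p under 0.05. Fabp3 has the largest Ctrl value at 2.38 and Ucp3 is negative in both genotypes.

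Markers of other cells differed between the muscles as well. Of 10 endothelial markers 9 were higher in Ctrl soleus (median log2 difference 0.71), with summed levels of 263 to 271 TPM in gastrocnemius and 398 to 476 TPM in soleus. Of the 9 adipocyte markers tested, 7 were higher (median 1.26), with sums of 311 to 380 and 704 to 923 TPM. Cd36 is expressed by these cells too, and Lpl by adipocytes, and the part of such cells in the muscle difference was not tested. Brown adipocyte markers summed to at most 10.8 TPM in any library. Median-ratio scaling moved the median of all genes from 0.19 to 0.01 and left 24 members higher and 2 lower, Ucp3 and Acad9, with the calls of Slc27a4, Acacb, Acads, Acaa1a and Acot13 lost. The split of all called genes then changed from 75.4% to 51.0% higher.

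In KO mice the pattern between the muscles was of the same kind. Of 33 members, 24 were higher in soleus (72.7%, against 21.9% of all 12135 genes tested) and Ucp3 was lower (7.82% of all genes were). The members' median log2 difference was 0.78, against 0.13 for all genes. Slc27a1, Slc27a4, Acads, Etfb and Acaa1a passed in Ctrl and not in KO mice. That contrast between genotypes is the difference of KO effects given below, in which none of these genes passed. Slc27a1 went from 64.6 ± 8.91 TPM in gastrocnemius KO to 101 ± 45.3 TPM in soleus KO, where the 3 libraries spread from 52.9 to 143 TPM. Without soleus KO 3, 28 members were called, Slc27a1 and Etfb among them. Of all called genes 73.7% were higher in soleus, and 50.2% after median-ratio scaling.

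Few of these genes differed between KO and Ctrl gastrocnemius. There the sign of the GC slope and the presence of Gm12338 separated the same libraries as genotype. So did the mitochondrially encoded share and the numbers of genes and of processed pseudogenes above 0. Genotype and these library features therefore cannot be told apart in any of the gastrocnemius KO differences. Of 32 members tested, Cd36 and Acot2 fell and Slc27a1 and Eci1 rose. That is 6.25% in each direction, against 4.99% of all 11911 genes for falls and 9.32% for rises, so the members were called about as often as genes in general. Acot1 was below the minimum of 1 TPM on average and was not tested here. The members' median log2 difference was -0.07, against 0.03 for all genes. KO values lay below every Ctrl value for 10 members, where 15.5% of all genes did so, and above for 5, where 22.2% did.

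Cd36 was at 123, 124 and 103 TPM in gastrocnemius Ctrl and at 76.1, 74.2 and 78.4 TPM in KO. The groups did not overlap, and the KO mean was 65.3% of Ctrl, with a log2 difference of -0.60 (SE 0.0849, limma adjusted p = 0.00868). The call held in each of the 6 fits that left out a library and in all 9 other settings. Acot2 was at 8.66, 6.96 and 8.41 TPM in Ctrl and at 4.78, 5.53 and 4.32 TPM in KO, again without overlap, a difference of -0.62 (SE 0.115, adjusted p = 0.0173). Without Ctrl 1 or without KO 3 its adjusted p was 0.0653 and 0.0563. Library shifts in soleus were 0.21 for Cd36 and 0.11 for Acot2.

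Slc27a1 was at 39.9, 43.0 and 43.7 TPM in gastrocnemius Ctrl and at 73.4, 55.6 and 64.7 TPM in KO. The KO libraries were all higher, with a log2 difference of 0.59 (SE 0.106, adjusted p = 0.0151) and an adjusted p of 0.0598 without Ctrl 1 and of 0.229 when all 12 libraries were fitted together. Its library shift in soleus was 0.64, as large as this rise and in the same direction, and the part of that shift in the gastrocnemius difference was not tested. Eci1, the isomerase that repositions double bonds of unsaturated fatty acids, was at 97.1, 99.4 and 109 TPM in Ctrl and at 122, 121 and 132 TPM in KO, a difference of 0.29 (SE 0.0720, adjusted p = 0.0391). The groups were separate but close, and the call was kept in 1 of 6 fits without a library and in 3 of 9 other settings. With the GC and length correction its difference was 0.13 (adjusted p = 0.280).

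The other 28 members tested did not pass in gastrocnemius. The Fabp3 level was 536 ± 81.3 TPM without and 774 ± 130 TPM with the knockout (SD, n = 3, limma adjusted p = 0.0597), and that of Acadm 167 ± 17.9 and 233 ± 35.8 TPM (adjusted p = 0.0544). All 5 carnitine and malonyl-CoA genes had negative differences, from -0.25 for Mlycd to -0.10 for Cpt1b. Fabp3, Acadm and Etfb passed as higher with a minimum mean of 5 TPM, where 5 members were higher and 2 lower. The library shift of Acadm was 0.42, nearly its gastrocnemius difference of 0.47 and in the same direction, and its part in that difference was not tested. Median-ratio scaling called 7 members, 1 higher (Slc27a1) and 6 lower (Cd36, Acot2, Lpl, Cpt2, Acacb and Hadhb). Under it the split of all called genes moved from 65.1% to 48.0% higher. Rescaled without mitochondrially encoded genes, 4 members were called, with Slc27a1 higher and Cd36, Acot2 and Mlycd lower, and Eci1 was lost. The median of all members was then -0.13, against -0.02 for all genes. Markers of the fibres and of other cells moved beside these values. Of 11 fast fibre markers 3 were higher in KO (Tnnc2, Tnni2 and Tnnt3), and none of 10 slow fibre markers was called. Of 9 adipocyte markers tested, 1 was called, Fabp4, the fatty acid binding protein of fat cells and endothelium. All 9 had positive differences (median 0.86), with sums of 311 to 380 TPM in Ctrl and 421 to 664 TPM in KO. Tendon markers were positive in 8 of 8 (median 0.77), macrophage markers in 7 of 9 (0.26), fibroblast markers in 6 of 10 (0.21) and endothelial markers in 4 of 10 (-0.03), with none called. The part of these cells in the members' values was not tested.

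In soleus, none of the 33 members passed in the comparison of KO with Ctrl by limma, where 0.0741% of all 12148 genes did (9 genes). At an unadjusted p under 0.05 there were 7 members, all lower in KO. The share of all genes at that unadjusted threshold was not counted, so this number has no comparison. Differences were negative for 30 of 33 members, while 53.0% of all genes were negative, and the members' median was -0.22 against -0.02. Without soleus KO 3, 26 were negative with a median of -0.12, where 41.1% of all genes were negative. Rescaled without mitochondrially encoded genes, 25 were negative with a median of -0.13, where 38.4% of all genes were negative and their median was 0.06. KO values lay below every Ctrl value for 11 members, where 7.94% of all genes did so, and above for none, where 8.90% did.

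Cd36 was at 330, 272 and 299 TPM in soleus Ctrl and at 195, 238 and 218 TPM in KO. The groups did not overlap, and the log2 difference was -0.47 (SE 0.136, adjusted p = 0.356), or -0.40 with the presence of Gm12338 as a term. Acot2 was at 32.6, 28.4 and 26.8 TPM in Ctrl and at 21.6, 21.1 and 16.1 TPM in KO, also separate, a difference of -0.56 (SE 0.148, adjusted p = 0.293). Acot1 had the largest difference of the members in soleus. It was at 10.8, 11.0 and 8.59 TPM in Ctrl and at 3.21, 6.30 and 2.32 TPM in KO, a KO mean of 38.9% of Ctrl and a log2 difference of -1.25 (SE 0.274, adjusted p = 0.231). The level of every KO library was below that of every Ctrl library, and the gene passed when all 12 libraries were fitted together. Slc27a1 went the other way from gastrocnemius, at 179, 140 and 186 TPM in Ctrl and 109, 143 and 52.9 TPM in KO, with overlap. Eci1 was at 233 ± 13.8 TPM in Ctrl and 217 ± 41.8 in KO.

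The summed members' level in soleus KO was 9429, 8533 and 6968 TPM, with the lowest in KO 3, the library that stood apart. As a share of nuclear-encoded TPM the members made up 1.196% to 1.391% in soleus Ctrl and 1.14% to 1.28% in KO, which overlapped. Slow fibre markers summed to 35778 to 46398 TPM in Ctrl and 22966 to 41115 in KO, with negative differences for 9 of 10 and a median of -0.26, near that of the members. Endothelial markers summed to 398 to 476 TPM in Ctrl and 356 to 391 in KO, without overlap, with 9 of 10 negative (median -0.24). Fibroblast markers were positive in 8 of 10 (median 0.42, 3 above every Ctrl value) and macrophage markers in 8 of 9 (0.29). No marker of these 4 lists was called, and their part in the members' lower values was not tested.

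**Figure D3:**
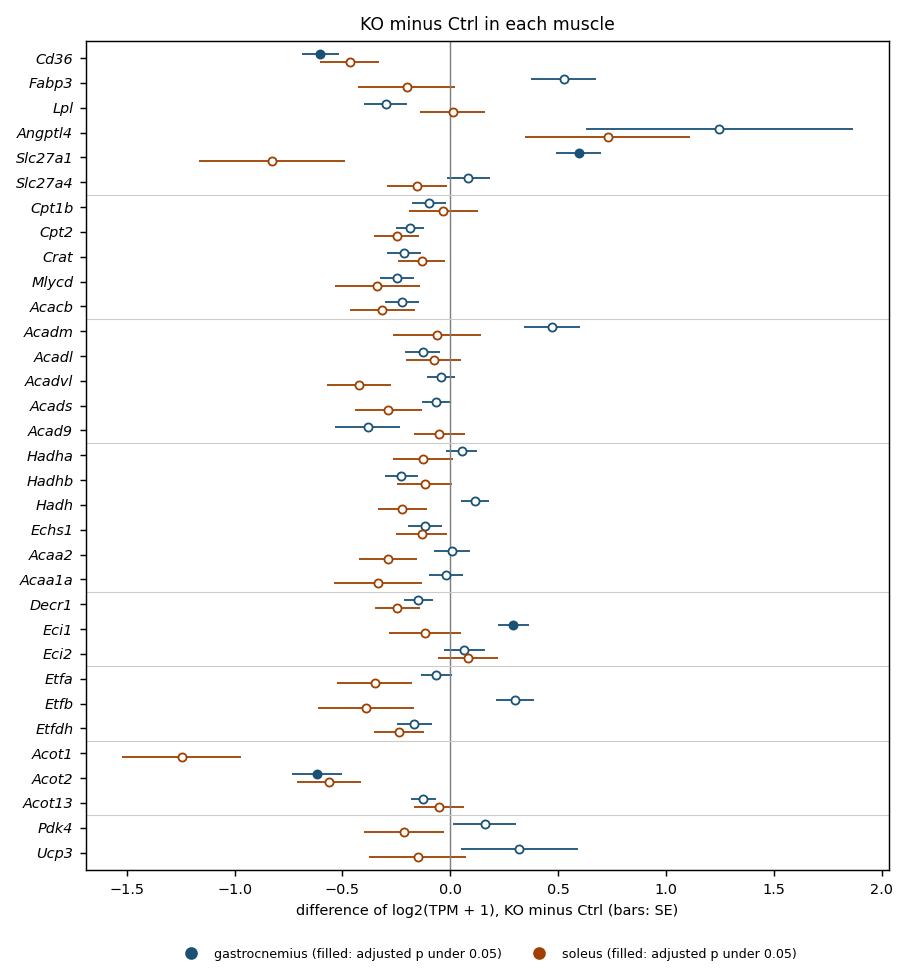
Difference of log2(TPM + 1), KO minus Ctrl, for each member in gastrocnemius and in soleus, with bars of 1 SE from limma and filled points for an adjusted p under 0.05. In soleus 30 of 33 points lie left of 0 and no point is filled, and in gastrocnemius the filled points are Cd36, Slc27a1, Eci1 and Acot2.

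The KO effect was compared between muscles over all 12 libraries. No member passed this test of soleus effect minus gastrocnemius effect, where 0.273% of all 12091 genes did (33 genes). An unadjusted p under 0.05 was seen for 6 members, and the share of all genes at that threshold was not counted. The smallest p was that of Slc27a1, at -1.42 (SE 0.394, adjusted p = 0.115), whose level was higher in gastrocnemius KO and lower in soleus KO than in Ctrl. It passed when soleus KO 2 was left out. For Cd36 the difference of effects was 0.14 (SE 0.154) and for Acot2 0.05 (SE 0.189), both smaller than their errors.

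Cd36, Acot2, Cpt2, Crat and Decr1, the reductase that prepares polyunsaturated acyl-CoA, had KO values below every Ctrl value in both muscles. That is 5 of 32 members tested in both (15.6%), against 1.74% of all 11635 genes, and none of the members was above in both, against 1.67%. In a KO effect averaged over both muscles, a comparison chosen after the data had been seen, 4 of 33 members fell (12.1%, against 1.78% of all 12091 genes) and none rose (1.76%). These were Cd36 at -0.53 (SE 0.0772, limma adjusted p = 0.00363), Acot2 at -0.59 (SE 0.0945, adjusted p = 0.00647), Acot1 at -0.89 (SE 0.178, adjusted p = 0.0217) and Cpt2 at -0.22 (SE 0.0515, adjusted p = 0.0434). Averaged differences were negative for 27 members and positive for 6. The largest in size was that of Angptl4, at 0.99 (SE 0.407, limma adjusted p = 0.2315), which did not pass. Its KO and Ctrl values overlapped in both muscles. Phf2 fell by 0.52 (limma adjusted p = 0.0264). Members were chosen with earlier results of these data known, which limits the comparison of their shares with those of all genes. The averaged effect and the counts in both muscles include the gastrocnemius difference. In that difference genotype cannot be told apart from the sign of the GC slope, the presence of Gm12338 and the other library features that separated the same libraries. Averaged differences were positive in 10 of 10 fibroblast (median 0.32) and 8 of 8 tendon markers (0.34). They were also positive in 9 of 9 macrophage (0.26) and 9 of 9 adipocyte markers (0.31). Endothelial markers were negative in 9 of 10 (median -0.11) and slow fibre markers in 8 of 10 (-0.10). Fast fibre markers were positive in 7 of 11 (0.05). No marker of these lists was called, and the part of such cells and fibres in the members' falls was not tested. The labels do not say whether a gastrocnemius and a soleus library came from 1 mouse, in which case the 12 libraries of this fit and of the difference of effects are not independent. Cd36 and Acot2 kept their calls in each of the 12 fits without a library, Acot1 in 6 and Cpt2 in 1. Cpt2 was at 32.0, 32.4 and 31.5 TPM in gastrocnemius Ctrl and 27.9, 26.7 and 29.2 in KO. In soleus it was at 54.2, 54.2 and 54.6 TPM in Ctrl and 44.6, 43.9 and 48.2 in KO, so the step was small and the Ctrl values nearly equal.

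**Figure D4:**
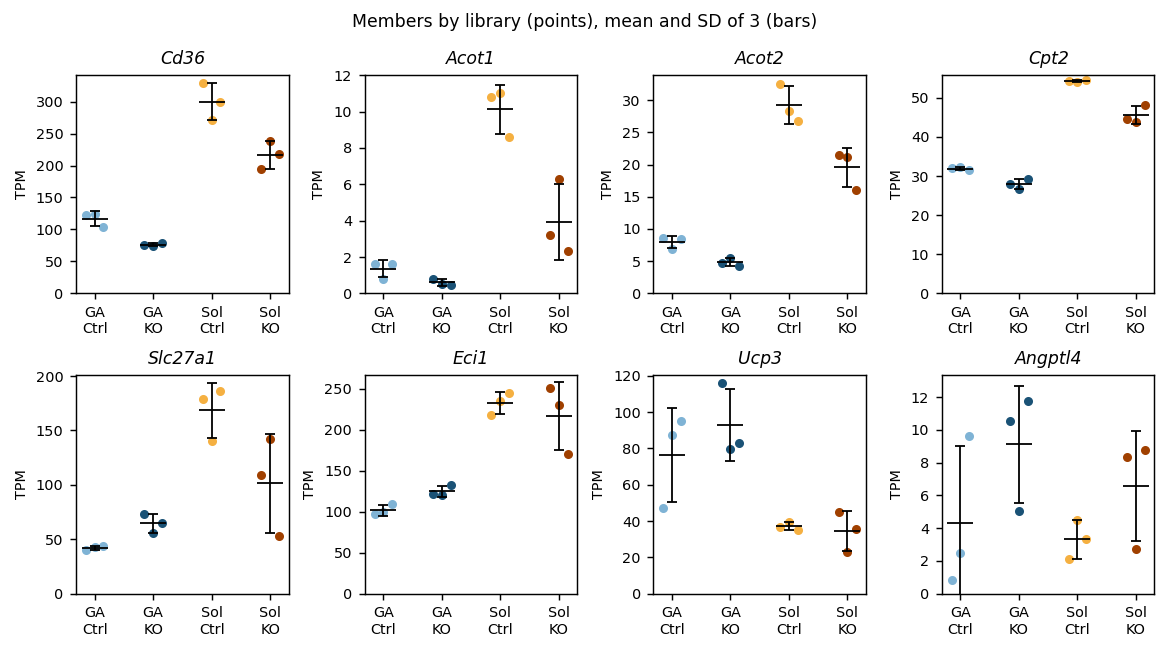
TPM of 8 members by muscle (GA gastrocnemius, Sol soleus) and genotype, with a point per library and bars for the mean and SD of 3, cut off at 0. The KO points of Cd36, Acot2 and Cpt2 lie below the Ctrl points in both muscles, while Slc27a1 and Eci1 are higher in gastrocnemius KO and overlap in soleus.

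Hadha and Hadhb, the subunits of the mitochondrial trifunctional protein, are transcribed in opposite directions from neighbouring starts and form 1 complex, yet their ratio differed between libraries. Hadha TPM over Hadhb TPM was 0.778, 0.805 and 0.828 in gastrocnemius Ctrl and 0.961, 0.995 and 0.972 in KO. In soleus it was 0.914, 0.679 and 0.867 in Ctrl and 0.781, 0.922 and 0.738 in KO. The ratio was 0.867 to 0.995 in the 6 libraries in which Gm12338 was above 0 and 0.679 to 0.828 in the 6 in which it was at 0, in both muscles and both genotypes. The gastrocnemius genotypes cannot be told apart from this library feature, and the ratio in soleus did not follow genotype. Several ratios between related members were split by Gm12338 in this way. Hadha over Hadhb was the only one of them whose ranges did not overlap.

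**Figure D5:**
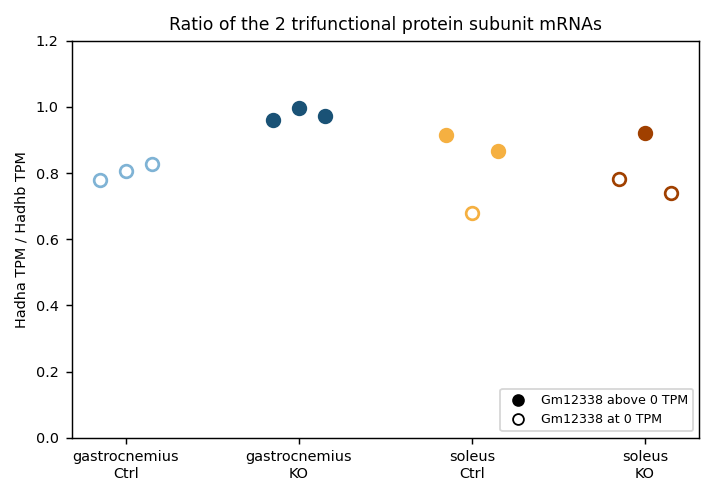
Ratio of Hadha TPM to Hadhb TPM in each library, by muscle and genotype, with filled points where Gm12338 was above 0 TPM. Every filled point is at 0.867 or higher and every open point at 0.828 or lower.

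Other genes of fat handling outside the 33 were examined in 5 lists. Between the Ctrl muscles, 9 of 13 tested genes of carnitine and fatty acid uptake were higher in soleus and none lower (69.2% higher, against 31.4% of all genes), among them the carnitine carrier Slc25a20 (1.19) and Fabp4 (1.22) on the log2 scale. Of 15 lipid droplet and lipolysis genes 13 were higher, with Dgat2, which makes triglyceride, at 2.44, Plin5, which coats droplets next to mitochondria, at 2.02 and the monoglyceride lipase Mgll at 1.45. Of 6 ketone and acetate genes 5 were higher. The smallest p was that of the monocarboxylate transporter Slc16a1 at 1.64, and the largest difference that of Bdh1, a ketone body dehydrogenase, at 2.57. A list of other beta-oxidation genes was mostly mitochondrial but held peroxisomal enzymes too, such as Decr2, Nudt7 and Nudt19. Of its 21 tested genes 10 were higher (47.6%) and 3 lower (14.3%). Of 19 genes of the peroxisomal list 8 were higher (42.1%) and 3 lower (15.8%), beside 31.4% and 10.2% of all genes. The lower peroxisomal genes included Crot, a peroxisomal carnitine transferase, at -1.16.

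Phyh, which starts the peroxisomal breakdown of phytanic acid, and Acad11, an acyl-CoA dehydrogenase of long chains, had the largest falls of these lists in gastrocnemius KO. Phyh went from 118 ± 11.8 to 74.0 ± 3.60 TPM (log2 difference -0.66, SE 0.0881, limma adjusted p = 0.00778) and Acad11 from 23.5 ± 1.52 to 14.7 ± 1.63 TPM (-0.64, SE 0.0973, adjusted p = 0.0100). In soleus Phyh was at 200.4 ± 21.04 and 156 ± 14.3 TPM and Acad11 at 16.6 ± 1.12 and 12.1 ± 0.740 TPM, without passing. In gastrocnemius 4.99% of all genes were lower and 9.32% higher. The list of other beta-oxidation genes had 4 of 21 lower (19.0%, Acad11, Etfrf1, Acot9 and the peroxisomal Nudt19) and 1 higher (Acad8). The peroxisomal list had 1 of 19 lower (Phyh) and 1 higher (Scp2). The droplet list had 3 of 14 higher (21.4%, G0s2, Plin3 and Fitm1), the uptake list 1 of 13 higher (Fabp4) and the ketone list 0 of 6. No gene of the 5 lists passed in soleus. In the averaged KO effect Acad11 (-0.54), Phyh (-0.51), Plin5 (-0.50), Acot7 (-0.40) and Hsd17b4 (-0.33) fell and Pdk3 rose by 0.52 on the log2 scale.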

How the data were processed

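Total RNA of 12 muscle samples was sequenced from directional libraries, per the labels' protocols. The authors deposited TPM in 1 table for each muscle, and mm10 was the build per the submitters' processing notes. The software used for alignment and quantification is not given in the sources used here. IDs were matched to GENCODE M21 (34652 of 34866).

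Values were transformed to log2(TPM + 1), which understates changes of low genes. Genes whose TPM averaged 1 or more over the libraries compared were fitted with limma 3.58.1 (R 4.3.3) with a mean-variance trend, and a gene was called at a Benjamini-Hochberg adjusted p under 0.05 over all genes tested. Each comparison used its own 6 libraries, while the difference of effects and the averaged effect used 12. The steps were tested on simulated data with known changes. Of 1.5-fold changes, 20.9% were recovered for soleus KO against Ctrl and 62.7% for gastrocnemius KO against Ctrl. Of 2-fold changes, 61.2% and 89.6% were recovered, so changes of this size could be missed in soleus. The changes were planted only in genes of higher mean level than Acot1, or than Acot2 in gastrocnemius. Noise was drawn for each gene separately, without shifts of whole libraries. For soleus 67 genes were changed at each of these sizes, while 9 genes were called in the data. The recovered shares may therefore be too high for these data. Members and lists were chosen with earlier results of these data known. All members are counted by role, and values per library are given for members called for KO or for the difference of effects, for up to 6 of smallest p per direction between Ctrl muscles and, chosen later, for Acot1 and Cpt2. Alternatives were pseudocounts of 0.1 and 0.5, other filters, median-ratio scaling, rescaling without mitochondrially encoded genes, a lowess correction for GC content and length (span 0.3), a replicate block, a common fit, a Gm12338 term in soleus and leaving out each library. From the lists of other genes, the called ones of smallest p are named. The averaged effect was added after the data had been seen. No sample was left out.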

Additional observations from a re-analysis of the deposited data

How the results depend on the processing

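The count of members called for KO in gastrocnemius, 4, became 7 with a minimum mean of 5 TPM, 7 with median-ratio scaling, 7 with the GC and length correction and 2 in the common fit of 12 libraries, and ranged from 1 (without Ctrl 1) to 8 (without Ctrl 3) when a library was left out, with 2 without KO 3. In soleus the count of 0 became 1 in the common fit and stayed at 0 without any library. Between the Ctrl muscles it was 30 and ranged from 25 to 30 over the settings and from 27 to 29 without a library, and in KO muscles 25, from 23 to 29 and from 21 to 28. The difference of effects had 0 members, and 1 without soleus KO 2. The averaged effect had 4, and 2 to 5 without a library (2 without gastrocnemius Ctrl 1, KO 2 or KO 3, or soleus Ctrl 1 or Ctrl 2). No member's called difference changed sign in any setting run. With the replicate number as a block, 2 members were called in gastrocnemius (Acot2 and Eci1 were lost), 0 in soleus, 29 and 23 between muscles, 0 for the difference of effects and 3 for the averaged effect. Same-numbered libraries correlated between -0.38 and 0.20 in their deviations, and the numbers were not taken to pair the samples.

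Calls over all genes ranged more widely than 1.5 times. In gastrocnemius 1704 became 1113 with no filter, 722 with the block and 524 in the common fit, and 547 to 1596 without a library. In soleus 9 became 0 with no filter, with the block or with the Gm12338 term, 5 at a mean of 5 TPM, 6 with a pseudocount of 0.1, 16 rescaled without mitochondrial genes and 98 in the common fit, and 0 to 11 without a library. Between KO muscles 3607 became 6040 rescaled without mitochondrial genes, and 2025 to 4388 without a library. For the difference of effects 33 became 14 with a pseudocount of 0.1, 16 rescaled without mitochondrial genes, 16 with GC correction and 3 with the block, and 1 to 308 without a library. For the averaged effect 428 became 753 with GC correction and 258 with the block, and 196 to 885 without a library. The share of calls that were higher moved in gastrocnemius from 65.1% to 48.5% without mitochondrial genes and 52.8% with GC correction, between Ctrl muscles from 75.4% to 49.8% with GC correction, between KO muscles from 73.7% to 87.7% and 50.6%, in soleus from 22.2% (2 of 9) to 8 of 16 calls and 37.5%, and for the difference of effects from 57.6% to 68.8% without mitochondrial genes. Depth is unknown, so the counting error of low values could not be given.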

Other observations

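The balance between some related members differed between genotypes in soleus. The ratio of Acadl to Acadvl TPM, the enzymes of long and very long chains, was 0.825 to 0.902 in gastrocnemius Ctrl and 0.786 to 0.886 in KO, and 0.958 to 0.978 in soleus Ctrl against 1.13 to 1.29 in soleus KO, where the genotypes did not overlap. The ratio of Acot2 to Acot1 was 2.57 to 3.12 in soleus Ctrl and 3.35 to 6.91 in soleus KO, also without overlap, and these genes share sequence. These ratios were picked after their values were seen and were not tested.

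Within groups, the median coefficient of variation of a member was 6.50% in gastrocnemius Ctrl, 5.94% in gastrocnemius KO, 7.74% in soleus Ctrl and 15.6% in soleus KO. Angptl4 was the most variable member in the first 3 of these groups, at 109%, 39.4% and 35.4%, and Acot1 in soleus KO at 52.9%. Transcripts of Cpt1b shared 93.7% of their 31-base words with the gene model Gm44502, and those of Etfb 68% with Gm45233, which were measured at no more than 1.97 and 1.67 TPM in any library.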
